A study of Mus musculus with 35 samples.

Results

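The genes described here are the 10 core genes of TGF-beta and IL-10 signalling measured in myeloid cells of mice with pancreatic cancer: the ligands Tgfb1, Tgfb2 and Tgfb3, the receptor chains Tgfbr1 and Tgfbr2, the SMAD proteins Smad3 and Smad7, the cytokine Il10 and its receptor chains Il10ra and Il10rb. They were chosen by name as a pathway set, and all 10 were found among the 53379 features of the count table. Female C57BL/6 mice carried T110299 tumors in the pancreas. Wild-type mice were 6 to 12 weeks old by the methods, which do not tie that age to the sequenced animals. T110299 is 1 tumor cell line derived from a mouse with Ptf1a-Cre-driven tumors and a mutant p53 allele, so every tumor in the series came from the same line in a wild-type host. Treated mice received 50 µg poly(I:C), a double-stranded RNA complexed with a polymer carrier, intravenously on days 18 and 20 after tumor induction, and control mice, labelled untreated, received glucose by the treatment protocol, although the account of the sequencing experiment calls them left untreated. Myeloid-derived suppressor cells (MDSC) were sorted from spleen and tumor as polymorphonuclear cells (PMN-MDSC, CD11b+Ly6CloLy6G+) or monocytic cells (M-MDSC, CD11b+Ly6ChiLy6G-). Each of these 8 groups held 4 libraries, except the treated PMN-MDSC from spleen and the treated M-MDSC from tumor with 3 each, and 4 libraries of unsorted untreated tumor were added as bulk tumor.

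TGF-beta ligands are secreted in a latent form, and once freed they bring together the receptor chains encoded by Tgfbr2 and Tgfbr1, which phosphorylate SMAD2 and SMAD3. SMAD7 is induced by the pathway and inhibits it at the receptor. IL-10 acts through a complex of the ligand-binding chain IL10RA and the shared chain IL10RB, and signals through JAK1, TYK2 and STAT3. Both cytokines restrain T cells, and both are commonly used to describe the suppressive activity of tumor-associated myeloid cells.

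Sequencing depth ran from 793070 to 4357105 counts in the MDSC libraries (median 2459368.5) and from 3771590 to 8886115 counts in bulk tumor. The smallest library was library 4 of the untreated M-MDSC from tumor, where 3 counts, the limit that a count of 0 allows, correspond to 3.78 counts per 1000000 (CPM). Libraries are numbered by their order in the table, not by mouse, and the labels do not say more of the replicates than a mouse number, so p-values measure the spread between these libraries. The labels repeat the same mouse numbers across organs and cell types, and the tests treat these groups as independent. The 5 interferon response genes used to check the treatment (Isg15, Ifit1, Ifit3, Mx1 and Irf7) separated treated from untreated libraries in every cell type and organ. Their summed level was 338 to 736 CPM in untreated and 3638 to 10640 CPM in treated PMN-MDSC from spleen, and 178 to 291 CPM against 949.6 to 2015 CPM in M-MDSC from tumor.

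The sort markers went against the labels in part of the tumor libraries, and in 1 respect in spleen. Ly6g, the antigen that defines PMN-MDSC in the sort, ran from 37.5 to 101 CPM in the untreated spleen PMN-MDSC. In the untreated tumor PMN-MDSC it was listed with 0, 3, 23 and 2 counts, or at most 8.99 CPM, and in the treated ones it ran from 5.05 to 86.5 CPM. The 7 PMN-MDSC markers together fell between 959.9 and 3239 CPM in these tumor libraries against 13440 to 30220 CPM in spleen, while the 5 macrophage markers (Adgre1, C1qa, C1qb, C1qc and Mrc1) summed to 2873 to 3530 CPM against 273 to 779.9 CPM. In M-MDSC the macrophage sum was 1490 to 2082 CPM in untreated tumor and 184 to 256 CPM in untreated spleen. Library 2 of the treated tumor M-MDSC stood apart: it held Ly6c2, the M-MDSC sort antigen, at 2.71 CPM against 587 and 409 CPM in the other 2, and a macrophage sum of 7330 CPM against 1657 and 3188 CPM. It is called the library labelled treated tumor M-MDSC 2, and values that rest on it are given with and without it. Ly6c2 in untreated tumor was at 1.92 to 10.95 CPM in PMN-MDSC and 41.1 to 144 CPM in M-MDSC, the order of the sort. In treated tumor PMN-MDSC it was at 68.0 to 278.5 CPM. The study reported high mean purities for the sorted cells, gated on surface protein, whereas the levels here are RNA. The name tumor PMN-MDSC below stands for the label of these libraries and not for a cell type that their RNA markers bear out, and a difference between organs in PMN-MDSC or between cell types in tumor is one between labelled groups. In spleen, Ly6g separated the cell types, at 363 to 473 CPM in treated PMN-MDSC and at most 4.04 CPM in treated M-MDSC. Ly6c2 overlapped between them in untreated libraries, at 44.1 to 118 CPM in PMN-MDSC and 94.1 to 171 CPM in M-MDSC, and after treatment, at 798 to 1469 CPM in treated spleen PMN-MDSC, which were sorted as Ly6Clo, and at 669.6 to 873 CPM in treated spleen M-MDSC. In these sorted pools, more cells of a type and more RNA per cell cannot be told apart. Tumors were minced and dissociated with a tumor dissociation kit, and spleens were passed through a cell strainer. Organ and dissociation cannot be told apart either.

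Levels below are CPM after trimmed mean of M values (TMM) scaling over all 34 libraries, given per library in table order. Differences are log2 fold changes with standard errors (SE) from edgeR's quasi-likelihood test, and a gene was called at a Benjamini-Hochberg adjusted p under 0.05 over all genes tested in that comparison. Genes with a mean under 25 counts in a comparison were not tested. Where 7 of the 10 genes were tested, the 3 left out were Tgfb2, Tgfb3 and Il10. The plot of the 10 genes by library shows each of these levels.

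**Figure D1:**
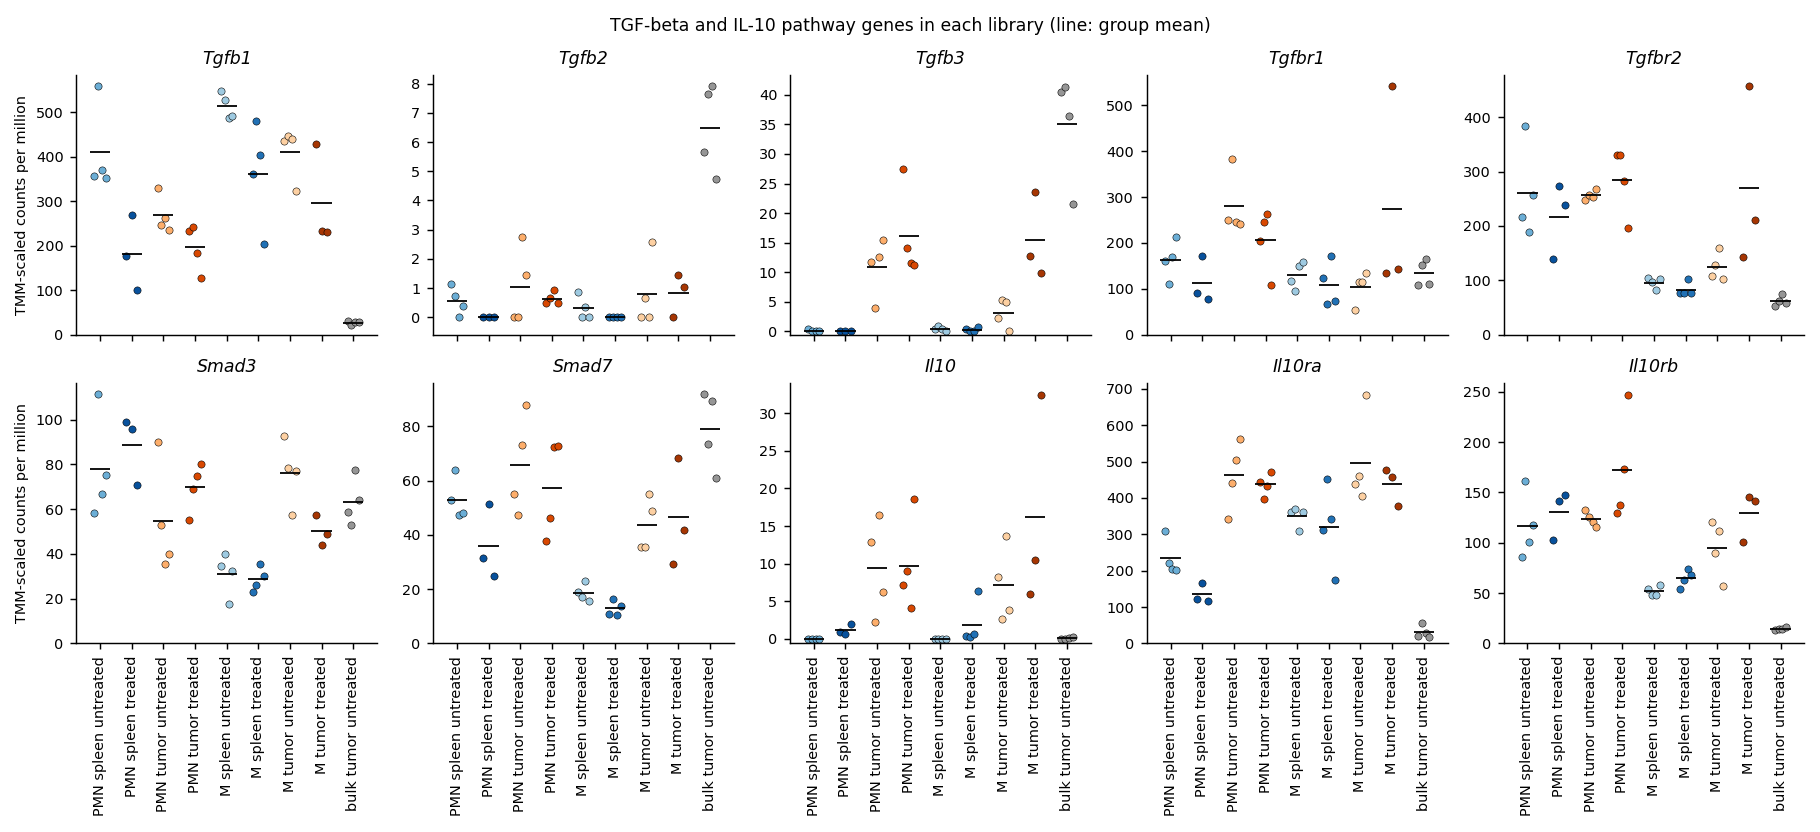
TMM-scaled CPM (vertical axis, 1 scale per gene) of the 10 genes in each library (points) with group means (lines), for 8 MDSC groups and bulk tumor. Il10 was at 0 in the untreated spleen groups and above 0 in every tumor MDSC library, 1 treated spleen M-MDSC library held 6.37 CPM of it, and 1 treated tumor M-MDSC library reached 543 CPM of Tgfbr1 and 458 CPM of Tgfbr2.

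Il10 (chromosome 1, 131019845 to 131024974, GRCm38, plus strand), the anti-inflammatory cytokine gene, was found in tumor MDSC and in no untreated spleen library. It had 0 counts in all 4 untreated PMN-MDSC and all 4 untreated M-MDSC libraries from spleen. In untreated tumor PMN-MDSC it was at 12.9, 2.21, 16.4 and 6.24 CPM, a total of 81 counts. In untreated tumor M-MDSC it was at 8.21, 2.64, 13.7 and 3.85 CPM, a total of 74 counts. Against 3 counts in each spleen library, the tumor mean was at least 7.01-fold higher in PMN-MDSC and at least 6.97-fold higher in M-MDSC. These limits cover counting in spleen only, not the spread of the tumor libraries. The lowest tumor library held 4 counts in PMN-MDSC and 3 in M-MDSC. The mean of 25 counts kept Il10 out of both tests. Without that minimum edgeR called Il10 in both cell types. It entered only through the tumor libraries where it was high, so no p-value is given.

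After treatment, a few Il10 counts appeared in spleen. The 3 treated spleen PMN-MDSC libraries held 1, 1 and 4 counts, and the treated spleen M-MDSC libraries 1, 1, 2 and 17. The library with 17 counts, at 6.37 CPM, also held the highest summed T cell markers (31.9 CPM, with 1.68 to 2.74 CPM in the other 3) and B cell markers (113 CPM, with 10.9 to 19.2 CPM in the other 3) of its group, and the part of those cells was not tested. Without the count minimum, edgeR's adjusted p for Il10 against the untreated libraries, all at 0, was 0.0922 in spleen PMN-MDSC and 0.044 in spleen M-MDSC, and the latter was 0.205 without the library with 17 counts. In treated tumor PMN-MDSC Il10 was at 7.22, 8.97, 4.13 and 18.6 CPM, overlapping the untreated libraries. In treated tumor M-MDSC it was at 5.96, 10.4 and 32.4 CPM, also overlapping, with a log2 difference of 1.04 ± 0.66 (SE, adjusted p = 0.438). Bulk tumor held 0, 0, 1 and 2 counts of Il10, although each of these libraries was deeper than all but 2 of the MDSC libraries.

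The IL-10 receptor chains were expressed in all MDSC groups. Il10ra (chromosome 9, 45253837 to 45269149), which encodes the ligand-binding chain, stood at 308, 220.2, 203 and 202 CPM in untreated spleen PMN-MDSC and at 341, 442, 503 and 561 CPM in untreated tumor PMN-MDSC. The 2 groups did not overlap, and the log2 difference was 1.14 ± 0.21 (SE, adjusted p = 0.00112). In M-MDSC it was at 361, 369.7, 308 and 362 CPM in untreated spleen and at 438, 459, 405 and 682 CPM in untreated tumor. That difference was 0.49 ± 0.17 (adjusted p = 0.0457), which was lost in 6 of 8 fits that left out 1 library, with an adjusted p of up to 0.128. Among untreated spleen cells, Il10ra was higher in M-MDSC than in PMN-MDSC by 0.77 ± 0.18 (adjusted p = 0.00437), a call lost in 1 fit over all 9 groups (adjusted p = 0.0609). In tumor the 2 cell types overlapped, at 0.07 ± 0.20 (adjusted p = 0.864).

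Il10rb (chromosome 16, 91406164 to 91425834), the chain shared with other cytokines of the IL-10 family, showed the opposite order of cell types in spleen. It was at 85.7, 161, 101 and 118 CPM in untreated spleen PMN-MDSC and at 53.8, 48.0, 48.4 and 57.8 CPM in untreated spleen M-MDSC. M-MDSC were lower by a log2 difference of -0.94 ± 0.16 (SE, adjusted p = 0.000797), with no overlap. In untreated tumor M-MDSC it rose to 121, 89.6, 112 and 56.5 CPM, a log2 difference of 0.89 ± 0.20 from spleen (adjusted p = 0.00611). Library 4, the smallest, lay within the spleen range. In untreated tumor PMN-MDSC it ran from 116 to 132 CPM, within the spread of the spleen libraries.

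Tgfb1 (chromosome 7, 25687002 to 25705077, plus strand) was the TGF-beta ligand with by far the most counts in MDSC. In untreated spleen it was at 357, 558, 371 and 353 CPM in PMN-MDSC and at 549, 529, 487 and 492 CPM in M-MDSC. In untreated tumor it was at 331, 247, 264 and 236 CPM in PMN-MDSC and at 435, 448, 439 and 324 CPM in M-MDSC. The spleen means were above the tumor means in both cell types, with no overlap of the libraries. EdgeR called neither log2 difference. It was -0.43 ± 0.20 for the PMN cells (SE, adjusted p = 0.0836) and -0.32 ± 0.13 for the monocytic cells (adjusted p = 0.0854). DESeq2 called the latter (adjusted p = 0.0333), and the former passed in 1 fit over all 9 groups (adjusted p = 0.048) and without tumor library 1 (adjusted p = 0.0474). Tgfb1 was higher in M-MDSC than in PMN-MDSC by 0.54 ± 0.14 in untreated spleen (adjusted p = 0.00615) and by 0.58 ± 0.16 in untreated tumor (adjusted p = 0.0334). Both calls were lost in 1 fit over all 9 groups (adjusted p = 0.283 and 0.146). The spleen call was lost without PMN-MDSC library 4 (adjusted p = 0.0569), and the tumor call in 6 of 8 fits that left out 1 library, with an adjusted p of up to 0.109.

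The other ligands were rare in MDSC. Tgfb2 (chromosome 1, 186622792 to 186705989) had at most 7 counts in any MDSC library and 0 in all 7 treated spleen libraries. Tgfb3 (chromosome 12, 86056745 to 86079041) had at most 2 counts in any spleen library. In untreated tumor it was at 11.7, 3.86, 12.5 and 15.4 CPM in PMN-MDSC and at 2.19, 5.27, 4.997 and 0 CPM in M-MDSC. In treated tumor it was at 27.4, 14.1, 11.5 and 11.2 CPM in PMN-MDSC. The 3 treated spleen PMN-MDSC libraries held 0 counts, which puts the treated tumor mean at least 8.11-fold above 3 counts in each spleen library. Fibroblast markers, which mark cells known to make this ligand, summed to 2.82 to 9.81 CPM in untreated spleen and 27.8 to 46.9 CPM in untreated tumor PMN-MDSC. In treated PMN-MDSC they overlapped, at 1.79 to 35 CPM in spleen and 23.4 to 123.5 CPM in tumor, and their part was not tested.

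Tgfbr1 (chromosome 4, 47353222 to 47414931), the type I receptor kinase, was higher in the libraries labelled tumor PMN-MDSC than in PMN-MDSC from spleen. Untreated spleen libraries stood at 161, 110.1, 170.2 and 212 CPM and untreated tumor libraries at 250.1, 384, 246 and 241 CPM. The log2 difference was 0.94 ± 0.23 (SE, adjusted p = 0.00559), with no overlap, and the call was lost in 1 fit over all 9 groups (adjusted p = 0.0762). In M-MDSC the tumor libraries stood at 54.7, 115, 114 and 135 CPM within a spleen range of 95.2 to 159 CPM, apart from the lowest. Within untreated tumor, M-MDSC were below PMN-MDSC by -1.47 ± 0.26 (adjusted p = 0.00307). In spleen the cell types overlapped, at -0.15 ± 0.24 (adjusted p = 0.614), and scaling to library totals turned the log2 ratio of the means from -0.32 to 0.23.

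Tgfbr2 (chromosome 9, 116084293 to 116175360), the type II chain that binds the ligand, was higher in untreated PMN-MDSC than in untreated M-MDSC in both organs. It was at 216, 384, 189 and 257 CPM in untreated spleen PMN-MDSC and at 104, 96.4, 81.6 and 102 CPM in untreated spleen M-MDSC. The log2 difference, M-MDSC minus PMN-MDSC, was -1.22 ± 0.18 (SE, adjusted p = 0.000347). In untreated tumor it was at 248, 256, 253 and 268 CPM in PMN-MDSC and at 107, 129, 159 and 103 CPM in M-MDSC, a difference of -1.06 ± 0.16 (adjusted p = 0.00102). Between tumor and spleen the log2 difference was 0.15 ± 0.21 for the PMN cells (adjusted p = 0.563) and 0.38 ± 0.16 for the monocytic cells (adjusted p = 0.0948). Neither was called, and the second passed without tumor library 4 (adjusted p = 0.0324). Scaling to library totals instead turned the ratio of the PMN-MDSC means from -0.03 to 0.30 on the log2 scale.

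The receptors were followed against the macrophage markers because the tumor libraries differed in these. Untreated tumor M-MDSC held sums of 1490 to 2082 CPM and Tgfbr2 of 103 to 159 CPM. Untreated tumor PMN-MDSC held sums of 2873 to 3530 CPM and Tgfbr2 of 248 to 268 CPM. The library labelled treated tumor M-MDSC 2 had the highest of both. Among treated tumor PMN-MDSC, Tgfbr2 was at 330.1, 330.5, 282 and 196 CPM at sums of 4753, 4921, 3132 and 2681 CPM. Tgfbr1 in the same libraries was at 204, 247, 264 and 107 CPM. Untreated tumor PMN-MDSC held sums of 3530, 2873, 3331 and 3050 CPM in table order. There Tgfbr1 was at 250, 384, 246 and 241 CPM and Tgfbr2 at 248, 256, 253 and 268 CPM. Untreated tumor M-MDSC held sums of 1588, 1490, 2082 and 1535 CPM. There Tgfbr1 was at 54.7, 115, 114 and 135 CPM and Tgfbr2 at 107, 129, 159 and 103 CPM. The part of the macrophage-marker cells in these differences was not tested.

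**Figure D2:**
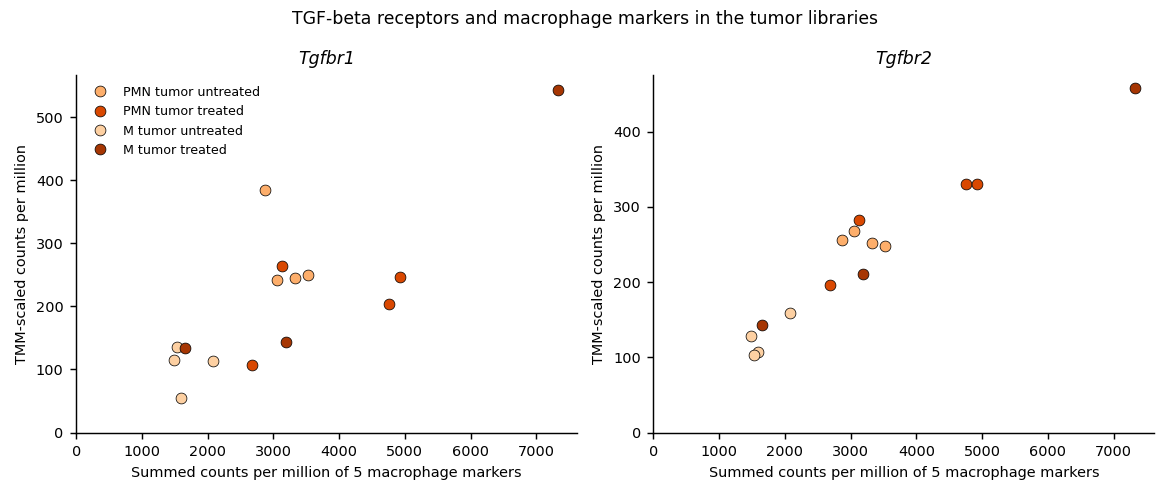
Level of Tgfbr1 (left) and Tgfbr2 (right) in TMM-scaled CPM against the summed level of 5 macrophage markers, for the 15 tumor MDSC libraries used (1 point each). The library labelled treated tumor M-MDSC 2 lies at the far right of both panels, at a sum of 7330 CPM.

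Smad3 (chromosome 9, 63646767 to 63757994), which carries the receptor signal to the nucleus, and Smad7 (chromosome 18, 75367529 to 75395935), which blocks it, were both low in spleen M-MDSC. Smad3 was at 34.5, 40.1, 17.6 and 32.4 CPM in untreated spleen M-MDSC and at 92.5, 78.4, 57.3 and 77.1 CPM in untreated tumor M-MDSC, a log2 difference of 1.28 ± 0.24 (SE, adjusted p = 0.00162). Smad7 was at 18.8, 16.9, 23.01 and 15.6 CPM in untreated spleen M-MDSC and at 35.6, 35.6, 55.2 and 48.8 CPM in untreated tumor M-MDSC, a difference of 1.24 ± 0.21 (adjusted p = 0.0008). Neither pair of groups overlapped, and both calls held in every fit that left out 1 library.

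In untreated spleen PMN-MDSC, Smad3 was at 58.3, 112, 66.5 and 75.1 CPM and Smad7 at 52.8, 64.0, 47.2 and 47.9 CPM. M-MDSC of the same organ were lower by a log2 difference of -1.10 ± 0.25 for Smad3 (SE, adjusted p = 0.00386) and -1.31 ± 0.17 for Smad7 (adjusted p = 0.000124). In untreated tumor PMN-MDSC, Smad3 stood at 90.2, 53.0, 35.6 and 39.8 CPM and Smad7 at 55.1, 47.5, 73.1 and 87.8 CPM. Both overlapped the spleen libraries and the tumor M-MDSC, and none of these differences was called. Without tumor PMN-MDSC library 1, Smad3 passed between the tumor cell types (adjusted p = 0.0302).

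By organ, 2 of 7 tested genes were called in untreated PMN-MDSC, both higher in tumor, where 59.1% of all genes tested were called. In untreated M-MDSC 4 of 7 were called, all higher in tumor, where 28.4% of all genes were called. The median log2 difference of the 7 genes was 0.27 in PMN-MDSC and 0.49 in M-MDSC, against 0.01 and 0.02 over all genes. By cell type, 6 of 7 genes were called in untreated spleen, 2 higher and 4 lower in M-MDSC, against 64.4% of all genes. In untreated tumor 3 of 7 were called, 1 higher and 2 lower in M-MDSC, against 13% of all genes. These 4 comparisons share the 4 untreated groups, so they are not independent of each other. In PMN-MDSC, leaving out spleen library 2 added Tgfbr2, Smad7 and Il10rb to the calls between organs, at adjusted p of 0.0319, 0.0226 and 0.0215. Between the cell types of untreated spleen, some markers of other cells were higher in PMN-MDSC than in M-MDSC. Macrophage sums were 273 to 779.9 against 184 to 256 CPM. Dendritic cell sums were 21.8 to 37.5 against 4.33 to 21.1 CPM. Erythroid sums were 61.7 to 157 against 18.1 to 47.6 CPM. Their part in the spleen calls was not tested.

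**Figure D3:**
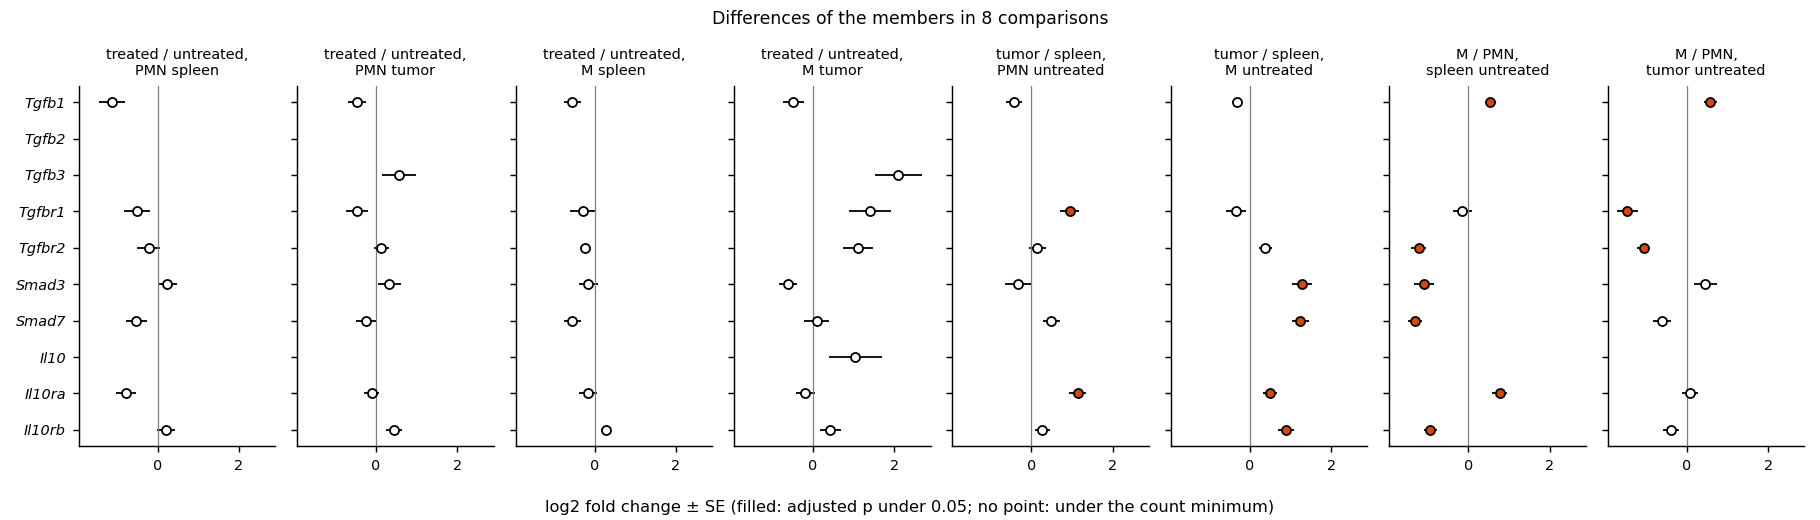
Log2 fold change with SE (horizontal axis) of each tested gene in 8 comparisons; filled points passed an adjusted p of 0.05. The 4 treatment panels on the left hold no filled point, and the 4 panels on organ and cell type hold 2, 4, 6 and 3.

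The treatment comparisons ask whether poly(I:C) changed these genes in each cell type and organ. None of the 10 genes was called in any of the 4 comparisons by edgeR with the count minimum. The share of all genes called was 11.6% for PMN-MDSC from spleen, 3.36% for PMN-MDSC from tumor, 19.6% for M-MDSC from spleen and 2.88% for M-MDSC from tumor. In that order, 7, 8, 7 and 9 of the 10 genes were tested, and 2, 0, 2 and 4 of them had an unadjusted p under 0.05. DESeq2 called 2 genes in PMN-MDSC from spleen, 1 in M-MDSC from tumor and 0 in the other 2 comparisons.

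Tgfb1 means were lower after treatment in each of the 4 comparisons, and none passed the threshold. In spleen PMN-MDSC the treated libraries were at 178, 269 and 101 CPM, all below the untreated range of 353 to 558 CPM. The log2 difference was -1.13 ± 0.32 (SE, adjusted p = 0.0547), and it was called by DESeq2 (adjusted p = 0.00707), in 1 fit over all 9 groups (adjusted p = 0.00353) and by edgeR with no count minimum (adjusted p = 0.00168). Without treated library 2 the edgeR adjusted p was 0.0379. Markers of other cells moved in the same libraries: from untreated to treated, the macrophage sum went from 273 to 779.9 CPM down to 45.2 to 102 CPM, the dendritic cell sum from 21.8 to 37.5 CPM down to 0.508 to 5.36 CPM and the erythroid sum from 61.7 to 157 CPM down to 0 to 5.25 CPM. The PMN-MDSC markers went from 13440 to 30220 CPM up to 35860 to 39860 CPM, and the part of these shifts was not tested. In spleen M-MDSC the treated libraries were at 362, 479.9, 404 and 204 CPM, all below the untreated ones, at -0.54 ± 0.21 (adjusted p = 0.0988), or 0.0384 without treated library 2. In tumor the treated and untreated libraries overlapped, at -0.48 ± 0.22 for the PMN cells (adjusted p = 0.287) and -0.48 ± 0.26 for the monocytic cells (adjusted p = 0.358).

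Il10ra was the other gene near the threshold in spleen PMN-MDSC. It was at 122, 165 and 116 CPM in the treated libraries, all below the untreated range of 202 to 308 CPM, and the same marker shifts stand beside it. The log2 difference was -0.77 ± 0.24 (SE, adjusted p = 0.0751), and it was called by DESeq2 (adjusted p = 0.0323) and in 1 fit over all 9 groups (adjusted p = 0.0458). In tumor PMN-MDSC the treated libraries stood at 445, 398, 432 and 473 CPM within the untreated range (-0.10 ± 0.18, adjusted p = 0.809). The treatment effects in tumor and spleen differed by 0.68 ± 0.28 for Il10ra, which was not called (adjusted p = 0.23).

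In tumor M-MDSC, the Tgfbr1 and Tgfbr2 differences after treatment turned on the library labelled treated tumor M-MDSC 2. Tgfbr1 was at 135, 543 and 143 CPM after treatment, with a log2 difference of 1.399 ± 0.52 (SE, adjusted p = 0.185) that was 0.42 ± 0.31 (adjusted p = 0.524) without that library. Tgfbr2 was at 143, 458 and 211 CPM, with a difference of 1.12 ± 0.37 (adjusted p = 0.135) that was 0.50 ± 0.24 (adjusted p = 0.318) without it. Without treated library 1 instead, Tgfbr2 passed at an adjusted p of 0.0395. Tgfb3 was at 12.7, 23.6 and 9.88 CPM, all above the untreated libraries, with a difference of 2.10 ± 0.57 (adjusted p = 0.0774; DESeq2 adjusted p = 0.00943). Tgfb3 and Il10 reached the count minimum only through the treated libraries, and without the doubted library Tgfb3 fell under it. With no count minimum Tgfbr1, Tgfbr2 and Tgfb3 passed at adjusted p of 0.0196, 0.000337 and 0.000864, and without the doubted library none did (0.474, 0.306 and 0.0839). In 1 fit over all 9 groups they passed at 0.0289, 0.0113 and 0.013, and without that library none did (0.627, 0.324 and 0.117). Smad3 was at 57.2, 44.1 and 49.1 CPM, all below the untreated libraries, by -0.61 ± 0.21 (adjusted p = 0.153).

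The remaining treatment differences were not called. Smad7 was at 10.8, 16.3, 10.6 and 13.9 CPM in treated spleen M-MDSC, a log2 difference of -0.55 ± 0.21 (SE, adjusted p = 0.0961) that overlapped the untreated libraries in 1 library. Il10rb was higher on average after treatment in each comparison, by 0.22 ± 0.22 and 0.44 ± 0.20 in PMN-MDSC from spleen and tumor and by 0.29 ± 0.13 and 0.43 ± 0.27 in M-MDSC, with adjusted p of 0.578, 0.278, 0.157 and 0.424. The first of these turned to a ratio of means of -0.07 on the log2 scale when scaled to library totals.

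Whether the treatment effect differed between organs or cell types was tested as an interaction. None of the tested genes was called by edgeR in any of the 4 interactions. Between tumor and spleen, 7 genes were tested in each cell type, with 3.5% of all genes called in PMN-MDSC and 0.79% in M-MDSC. Between M-MDSC and PMN-MDSC, 7 were tested in spleen, with 10.9% of all genes called, and 9 in tumor, with 0.0239% called. Unadjusted p under 0.05 occurred for 1, 2, 0 and 3 genes in that order. The largest estimates were those of Tgfbr1 in tumor M-MDSC, 1.73 ± 0.65 against spleen (adjusted p = 0.228) and 1.87 ± 0.62 against PMN-MDSC (adjusted p = 0.507). Without the library labelled treated tumor M-MDSC 2 they were 0.73 ± 0.48 (adjusted p = 0.692) and 0.89 ± 0.45 (adjusted p = 0.913). Tgfbr2 passed between tumor and spleen M-MDSC without treated tumor library 1 (adjusted p = 0.02). With no count minimum, edgeR called Tgfbr1 (adjusted p = 6.41e-06) and Tgfbr2 (0.0011) between the organs in M-MDSC, and neither without the library labelled treated tumor M-MDSC 2 (0.514 and 0.505). Il10 also passed there (0.0147) and in PMN-MDSC (0.0493), but untreated spleen held 0 counts, so these contain no measured fold, and the first was 0.544 without the spleen library with 17 counts.

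Bulk tumor set the sorted cells against the tissue they came from. Tgfb1 was at 31.4, 21.2, 27.5 and 29.3 CPM in bulk tumor, below every MDSC library. The log2 difference was -3.50 ± 0.19 from untreated tumor PMN-MDSC (SE, adjusted p = 2.55e-08) and -4.02 ± 0.22 from untreated tumor M-MDSC (adjusted p = 4.43e-08). Il10ra was lower in bulk tumor by -4.14 ± 0.35 and -4.13 ± 0.35 (adjusted p = 1.28e-06 and 9.74e-07). Il10rb, at 13.8 to 15.95 CPM, was lower by -3.30 ± 0.15 and -2.85 ± 0.25 (adjusted p = 9.83e-09 and 1.44e-06). Tgfbr2 was lower by -2.27 ± 0.15 and -1.14 ± 0.20 (adjusted p = 1.24e-07 and 0.000361).

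The other ligands showed the reverse. Tgfb2 was at 5.66, 7.66, 7.92 and 4.75 CPM in bulk tumor, above every MDSC library. Tgfb3 was at 40.5, 41.4, 36.5 and 21.6 CPM, above the untreated tumor PMN-MDSC by a log2 difference of 1.46 ± 0.33 (SE, adjusted p = 0.00205) and above the untreated tumor M-MDSC by 3.10 ± 0.43 (adjusted p = 6.14e-05). Both genes reached the count minimum only through the bulk libraries where they were high: over 4 libraries each, Tgfb3 had 91 counts in tumor PMN-MDSC and 31 in tumor M-MDSC, and Tgfb2 had 10 and 3. Bulk tumor held epithelial markers at 3540 to 5705 CPM and fibroblast markers at 816 to 1074 CPM, with the 7 PMN-MDSC markers at 6.30 to 13.5 CPM and Ly6g at 0 in every library. Smad7 was higher in bulk tumor than in tumor M-MDSC by 0.73 ± 0.21 (adjusted p = 0.00833), and Smad3 was called in neither comparison. Of the 7 genes that reached the minimum in both groups, 5 were called against PMN-MDSC, where 69.5% of all genes tested and 69.2% of those that reached it in both groups were called, and 5 against M-MDSC, where these shares were 69.2% and 66.6%.

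Levels of different genes were compared per exon length, as FPKM (fragments scaled to kilobases of exon and to library size). In untreated spleen PMN-MDSC, Tgfb1 (65.6 ± 7.84 FPKM, SD, n = 4) and Il10ra (55.4 ± 17.2) led and did not differ beyond their spread, nor did the next 3, Tgfbr2 (25.6 ± 5.40), Il10rb (24.6 ± 3.86) and Tgfbr1 (20.8 ± 6.55). In untreated tumor PMN-MDSC Il10ra (133 ± 25.5 FPKM, SD, n = 4) stood alone at the top, followed by Tgfb1 (53.9 ± 9.84) and Tgfbr1 (43.1 ± 9.85), whose means lay just over 1 SD apart, and by Il10rb (32.7 ± 2.47) and Tgfbr2 (31.5 ± 0.69), the latter within the SD of the former. In untreated M-MDSC, Tgfb1 (124 ± 5.46 FPKM, SD, n = 4) and Il10ra (122 ± 9.89) lay within their spread in spleen, and Il10ra (143 ± 32.4) was above Tgfb1 (83.1 ± 13.6) in tumor. In bulk tumor Tgfbr1 (22.03 ± 4.75 FPKM, SD, n = 4) and Smad7 (18.7 ± 3.06) led, the latter within the SD of the former, and Tgfb3 (11.01 ± 2.54) was above Tgfb1 (5.83 ± 1.01). Il10 stood at 7.34 ± 5.08 FPKM in untreated tumor PMN-MDSC, where Smad3 was at 9.98 ± 4.75 FPKM, and at 5.56 ± 4.07 FPKM in untreated tumor M-MDSC.

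**Figure D4:**
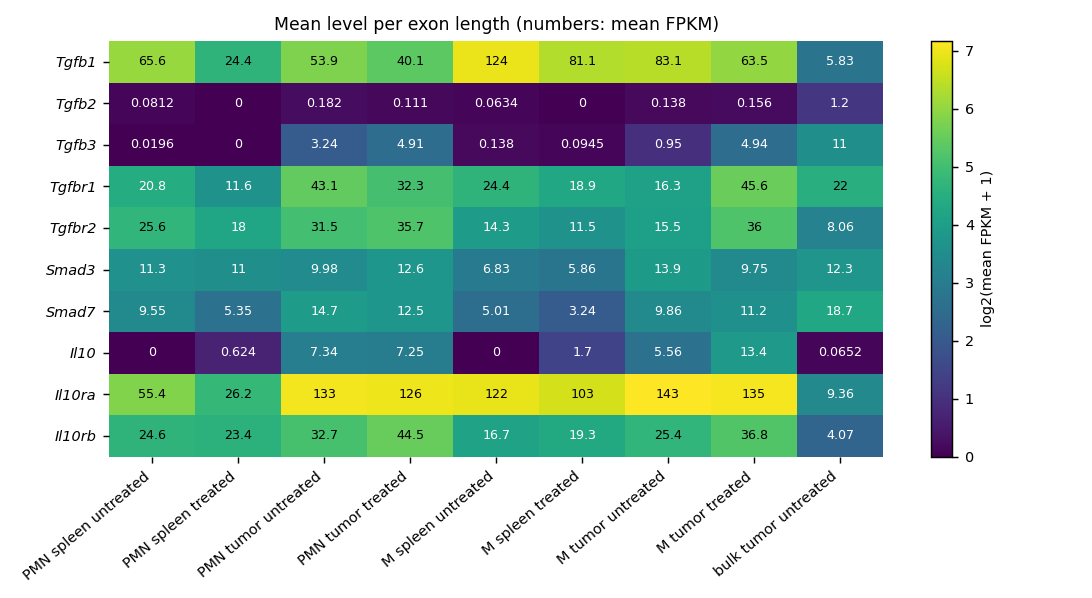
Mean FPKM of the 10 genes (rows) in the 9 groups (columns), with colour on a log2(FPKM + 1) scale. Il10ra and Tgfb1 are the highest rows in 7 of the 8 MDSC groups, Il10rb (44.6 FPKM) lies above Tgfb1 (40.1 FPKM) in treated tumor PMN-MDSC, and Tgfb2, Tgfb3 and Il10 are at or near 0 in the spleen groups.

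A further 43 genes of the same pathways were examined in 7 lists: latency and activation of TGF-beta, co-receptors, SMAD partners and regulators, TGF-beta target genes, the IL-10 family and its shared receptors, IL-10 signal transduction, and IL-10 target genes. Between tumor and spleen, 13 of 27 tested genes rose and 9 fell in untreated PMN-MDSC, and 18 rose and 1 fell of 27 in untreated M-MDSC. That is 81.5% and 70.4% called, against 59.1% and 28.4% of all genes. Some were tested only through the organ where they were high. Of the genes with a mean of 25 counts or more in both organs, 18 of 23 (78.3%) and 16 of 24 (66.7%) were called, against 55.9% and 26.3% of all such genes. Among the genes that reached the minimum in both organs, 4 of 7 SMAD partners and regulators rose and 2 fell in PMN-MDSC, and 3 rose and 0 fell of 7 in M-MDSC. Of the 7 IL-10 target genes, 4 rose and 1 fell in PMN-MDSC, and 6 rose and 0 fell in M-MDSC. The latency and activation genes rose in 2 and fell in 2 of 4 in PMN-MDSC, and rose in 2 and fell in 0 of 4 in M-MDSC. The 1 co-receptor counted in PMN-MDSC fell, and both of those in M-MDSC rose. Of the TGF-beta target genes Tgfbi was tested, which was not called in PMN-MDSC and rose in M-MDSC. The IL-10 signal transducers Jak1, Tyk2 and Stat3 gave 0 higher and 2 lower in PMN-MDSC, and 1 higher and 1 lower in M-MDSC, and no gene of the IL-10 family list reached the minimum in both organs. Epithelial tumor cell markers differed between the same libraries, at 0 to 2.16 CPM in spleen and 87.6 to 596 CPM in tumor PMN-MDSC and at 0.437 to 6.77 CPM in spleen and 13.7 to 229 CPM in tumor M-MDSC, and their part in these differences was not tested.

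Regulators of SMAD signalling held several of the large differences. Pmepa1, a feedback inhibitor of the pathway, was at 0 to 1.44 CPM in untreated spleen PMN-MDSC and 67.3 to 122 CPM in untreated tumor PMN-MDSC. It had at most 3 counts in a spleen library and was tested only through the tumor libraries (adjusted p = 3.39e-06), so no fold is given. Tgif1, a SMAD corepressor, was at 8.63 to 20.5 CPM in spleen and 228 to 312 CPM in tumor PMN-MDSC, a log2 difference of 4.29 ± 0.26 (SE, adjusted p = 1.76e-06), and differed by 3.43 ± 0.17 in M-MDSC (adjusted p = 6.83e-08). Skil, which encodes the SMAD corepressor SnoN, was at 106 to 152 CPM in spleen and 675 to 1042 CPM in tumor PMN-MDSC, a difference of 2.92 ± 0.21 (adjusted p = 3.62e-06). Nfil3, a transcription factor and IL-10 target, was at 30.1 to 66.9 CPM in spleen and 340.4 to 469 CPM in tumor M-MDSC, a difference of 3.22 ± 0.23 (adjusted p = 1.11e-06). Thbs1, encoding thrombospondin 1, which can free TGF-beta from its latent complex, was at 59.6 to 98.3 CPM in spleen and 7578 to 13590 CPM in tumor M-MDSC, a difference of 7.04 ± 0.28 (adjusted p = 2.14e-08). Platelets also hold this protein, and the platelet markers summed to 1.31 to 2.75 CPM in spleen and 8.99 to 22.3 CPM in tumor M-MDSC. Their part was not tested.

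Of the 43 genes, treatment called 8.33% of those tested in PMN-MDSC from spleen, 28% in M-MDSC from spleen and 3.7% in M-MDSC from tumor, against 11.6%, 19.6% and 2.88% of all genes. In PMN-MDSC from spleen, 2 of 24 were called, both higher: Acvrl1, a type I receptor of the same family, by a log2 difference of 2.17 ± 0.37 (SE, adjusted p = 0.00924) and Ifnlr1, the interferon lambda chain that pairs with IL10RB, by 1.17 ± 0.21 (adjusted p = 0.0132). The Ifnlr1 call was lost without treated library 3 (adjusted p = 0.0511). In PMN-MDSC from tumor edgeR called 0 of 28, against 3.36% of all genes, and 5 of these had an unadjusted p under 0.05. Of the genes tested in spleen M-MDSC, 3 of 25 rose and 4 fell, led by Ski, a SMAD corepressor (-1.07 ± 0.14, adjusted p = 0.000865), and Acvrl1 (-1.48 ± 0.20, adjusted p = 0.00111). Ifnlr1 was called higher there, at a mean of 13.1 CPM in treated and 3.94 CPM in untreated libraries. It was tested only through the treated libraries, so no fold is given. Of the genes reaching 25 counts on average in both groups, 5 of 23 (21.7%) were called, against 18.2% of all such genes. In M-MDSC from tumor 0 of 27 rose and 1 fell, Thbs1, by -2.11 ± 0.39 (adjusted p = 0.0267). That call was lost in 5 of 7 fits that left out 1 library, namely any of the 4 untreated libraries or treated library 3, with an adjusted p of up to 0.116. Markers also moved with treatment in tumor M-MDSC. The M-MDSC sum went from 3681 to 4191 CPM down to 2204 to 2899 CPM. The endothelial sum went from 20.55 to 41.5 CPM up to 70.3 to 142.8 CPM. The platelet sums overlapped, at 8.99 to 22.35 CPM in untreated and 18.3 to 65.2 CPM in treated libraries. The part of these shifts was not tested.

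Acvrl1 moved in opposite directions in the spleen cell types. It went from 61.9 to 128 CPM in untreated to 261 to 539.8 CPM in treated PMN-MDSC, and from 23.3 to 35.8 CPM in untreated to 8.07 to 13.6 CPM in treated M-MDSC. The interaction was -3.70 ± 0.43 (SE, adjusted p = 0.000564). Endothelial markers, of cells that express Acvrl1, went from 29.8 to 73.9 CPM in untreated down to 13.1 to 24.4 CPM in treated PMN-MDSC and from 19.6 to 28.4 CPM up to 110 to 269 CPM in M-MDSC. In spleen M-MDSC the NK cell markers also went from 5.11 to 10.5 CPM up to 18.2 to 27.4 CPM and the erythroid markers from 18.1 to 47.6 CPM down to 0.608 to 2.67 CPM, and the part of these shifts in the spleen treatment calls was not tested. Il1rn, the interleukin 1 receptor antagonist and an IL-10 target, had an interaction of 2.47 ± 0.54 (adjusted p = 0.0125), and Smurf1, a ubiquitin ligase for SMADs, one of -1.21 ± 0.31 (adjusted p = 0.0229) that was not called with no count minimum (adjusted p = 0.0754). These were 3 of 24 genes tested in spleen (12.5%, against 10.9% of all genes), and 0 were called in each of the other 3 interactions by edgeR, with 4, 11 and 5 at an unadjusted p under 0.05.

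**Figure D5:**
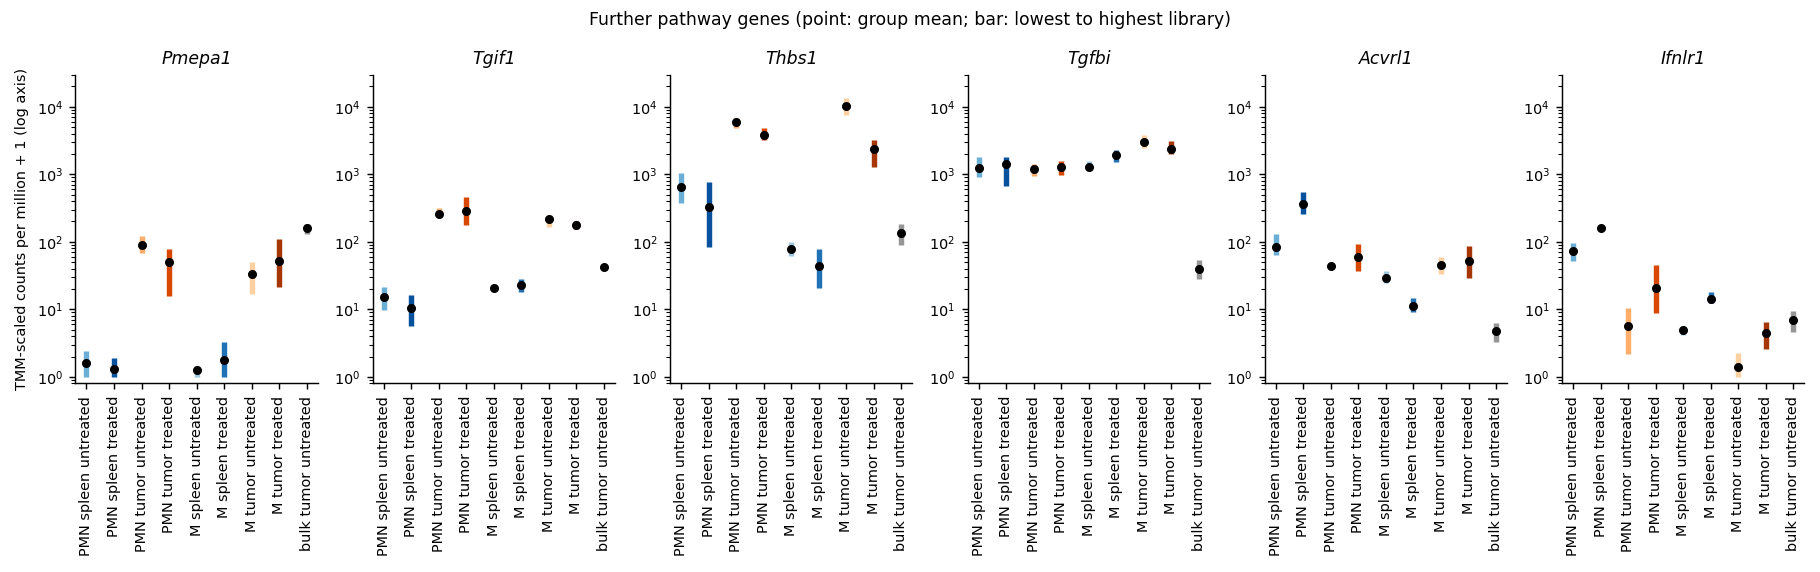
Level of 6 further pathway genes in TMM-scaled CPM + 1 (log axis), with the group mean (point) and the range from the lowest to the highest library (bar). Pmepa1, Tgif1 and Thbs1 are higher in the tumor than in the spleen MDSC groups, Tgfbi is lowest in bulk tumor, and Acvrl1 rises in PMN-MDSC and falls in M-MDSC from spleen after treatment.

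Between cell types, 5 of 25 tested pathway genes were higher and 14 lower in M-MDSC from untreated spleen, or 76.0% called against 64.4% of all genes. Of those that reached the minimum in both groups, 17 of 23 (73.9%) were called, against 60.6% of all such genes. Among these Il1rn (-2.62 ± 0.25 on the log2 scale, SE, adjusted p = 2.39e-05) and Jak1, a kinase of the IL-10 receptor (-1.47 ± 0.14, adjusted p = 2.16e-05), led. Ifnlr1 averaged 72.7 CPM in PMN-MDSC and 3.94 CPM in M-MDSC. It was tested only through PMN-MDSC, so no fold is given. In untreated tumor 5 of 27 were higher and 3 lower in M-MDSC (29.6% called, against 13% of all genes), led by Tgfbi, an extracellular matrix protein induced by TGF-beta (1.32 ± 0.19, adjusted p = 0.000755), Nfil3 (0.95 ± 0.16, adjusted p = 0.00214) and Il1rn (-1.25 ± 0.23, adjusted p = 0.00409). Against bulk tumor, 10 of 34 were higher and 20 lower in bulk tumor than in PMN-MDSC, and 11 of 35 were higher and 20 lower than in M-MDSC. Of the genes with a mean of 25 counts or more in both groups, 24 of 27 (88.9%) and 22 of 26 (84.6%) were called, against 69.2% and 66.6% of all such genes. These were 4 higher and 20 lower against PMN-MDSC and 3 higher and 19 lower against M-MDSC. All 7 IL-10 target genes were lower in bulk tumor in both comparisons, among them Nfil3 by -5.27 ± 0.22 and -6.16 ± 0.25 and Socs3, the feedback inhibitor of STAT3 signalling, by -5.61 ± 0.23 in the first (adjusted p = 6.02e-09, 9.46e-09 and 6.02e-09). Tgfbi was lower by -5.16 ± 0.26 and -6.41 ± 0.31 (adjusted p = 1.41e-08 and 2.38e-08). Ccn2, a TGF-beta target of fibroblasts, averaged 106.6 CPM in bulk tumor and 2.30 CPM in M-MDSC. It was tested only through the bulk libraries, so no fold is given.

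The genes whose log2 levels ran most alike over the 30 MDSC libraries were looked up among 8536 genes for 3 members. For Il10 they were Ctsl (Pearson's r = 0.916), Odc1 (0.904) and Stab1 (0.883). For Tgfb1 they were Abca2 (0.86), Cbfa2t3 (0.85) and Cisd2 (0.834). For Tgfbr1 they were Hpgds (0.746), Itgax (0.744) and Dnmt3a (0.74). The 30 points share 8 groups that differ in organ, so these values describe the order of the libraries and carry no test.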

How the data were processed

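The authors deposited raw counts of read fragments per gene. Per the labels and the study's methods, rRNA-depleted stranded libraries were mapped to GRCm38 with ContextMap around BWA, and featureCounts (Subread 1.4.6-p3) counted fragments by strand. Of 35 libraries, 1 from treated tumor M-MDSC held 10 counts and was left out (minimum 1000). Gene positions and exon lengths came from GENCODE for GRCm38 and matched 53274 of 53379 features.

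Counts were tested with edgeR 4.0.16 (R 4.3.3, TMM, robust quasi-likelihood F-test, two-sided) on the libraries of each comparison. Genes averaging 25 counts or more entered, and p-values were adjusted over all of them. Counts over the genes that reached this in both groups were also taken. There were 10 comparisons of 2 groups and 4 interactions. CPM used TMM over all libraries, and FPKM used library totals and a union of exons. Intervals and limits from counts cover counting error only. The fit was also run on simulated counts, and the outcome is not given here.

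Members and lists were chosen with earlier results of these data known. The text names all 10 members and, of the 43 further pathway genes, the called genes with the 3 lowest adjusted p in each comparison, and 1 more gene of the lists is not reported here and enters none of their counts. Alternatives were DESeq2 1.42.0, RLE scaling, no count minimum, 1 fit over all 9 groups, the study's thresholds (adjusted p under 0.001 and a fold of 2 or more), library-total scaling and leaving out each library. Leaving out 2 doubted libraries under some of these settings was added after seeing the data.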

Additional observations from a re-analysis of the deposited data

Results flagged for a closer look

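Of 67 gene and group combinations with 4 libraries, 8 held a library whose gap to its nearest neighbour passed Dixon's 95% critical value, where chance gives about 1 in 20. Tgfb1 was highest in library 2 of the untreated spleen PMN-MDSC at 558.4 CPM (353.4 to 370.6 CPM in the others) and lowest in library 4 of the untreated tumor M-MDSC, the smallest library, at 323.7 CPM (435.0 to 447.5 CPM). Tgfbr1 was highest in library 2 of the untreated tumor PMN-MDSC at 384.2 CPM (241.4 to 250.1 CPM), and Tgfbr2 in library 3 of the treated spleen M-MDSC at 101.5 CPM (76.34 to 77.23 CPM). Il10 was highest in library 4 of the treated spleen M-MDSC at 6.374 CPM (0.2669 to 0.6079 CPM). Il10ra was lowest in library 3 of the untreated spleen M-MDSC at 308.3 CPM (360.7 to 369.7 CPM), and Il10rb highest in library 4 of bulk tumor at 15.95 CPM (13.76 to 14.09 CPM). Tgfb3 was highest in library 1 of the untreated spleen PMN-MDSC at 0.2885 CPM, which is 1 count against 0 in the others.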

How the results depend on the processing

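No paired analysis was possible from column names because the table's columns carry no mouse number, and column order was not used to pair them. The groups of the columns do run in the order of the sample labels. A pairing by mouse that rests on this order was not tested. Of 107 tests of the 10 genes, 29 were called. All 29 were also called with DESeq2, with RLE scaling and with no count minimum, and 24 in every fit that left out 1 library. The 2 calls of Tgfb2 held in the 5 and 4 of 8 such fits in which it was tested. In 1 fit over all 9 groups 27 were tested and 22 called (lost were Tgfbr1 and Il10ra between organs, in PMN-MDSC and M-MDSC, and between cell types Tgfb1 in both organs and Il10ra in spleen). The study's thresholds left 14, and 0 changed sign. The numbers of the 10 genes called moved by more than 1.5 times as follows. In treated PMN-MDSC from spleen 0 became 2 with DESeq2, 1 with no count minimum, 2 in the fit over all groups and 0 to 1 with 1 library left out. In treated M-MDSC from spleen 0 became 1 with no count minimum and 0 to 1 with 1 library left out. In treated M-MDSC from tumor 0 became 1 with DESeq2, 3 with no count minimum, 3 in the fit over all groups and 0 to 1 with 1 library left out. Between organs in PMN-MDSC 2 became 4 with no count minimum, 0 under the study's thresholds and 2 to 5 with 1 library left out, and in M-MDSC 4 became 1 under the study's thresholds. Between cell types the study's thresholds left 2 of 6 in spleen and 0 of 3 in tumor. Smaller moves were from 4 to 5 with DESeq2 and 6 with no count minimum between organs in M-MDSC, and from 3 to 4 with no count minimum and 2 in the fit over all groups between cell types in tumor. The interaction of treatment with organ went from 0 to 1 in PMN-MDSC and from 0 to 3 in M-MDSC with no count minimum, the latter 0 to 1 with 1 library left out. The cause of these changes was not tested. In tumor M-MDSC, the calls of Tgfbr1, Tgfbr2 and Tgfb3 with no count minimum and in the fit over all groups were lost without the library labelled treated tumor M-MDSC 2, an alternative chosen after seeing the data. For Tgfb3 the remaining treated libraries, at 12.7 and 9.88 CPM, stayed above the untreated ones, at most 5.27 CPM. Over all genes, treatment called 844 in spleen PMN-MDSC (DESeq2 1354, no count minimum 1818, fit over all groups 2356, study's thresholds 3), 279 in tumor PMN-MDSC (613, 864, and 20 under the study's thresholds), 1733 in spleen M-MDSC (218 under the study's thresholds) and 241 in tumor M-MDSC (796, 1064, 794 and 1). The study's thresholds left 1727 of 4714 and 714 of 2357 between organs, 1993 of 5523 and 126 of 990 between cell types, and 4469 of 7736 and 4619 of 7630 against bulk tumor. Without the count minimum, 3662 were called between organs in M-MDSC, 1658 between cell types in tumor and 11698 against bulk tumor in PMN-MDSC. The interactions called 282, 69, 914 and 2, with DESeq2 501, 307, 1300 and 22, with no count minimum 676, 659, 1590 and 161, in the fit over all groups 681, 146, 1284 and 0, and under the study's thresholds 0, 1, 10 and 0. Scaling to library totals moved the median of all genes by -0.24 for treatment in spleen PMN-MDSC, by 0.29 and -0.26 between organs in PMN-MDSC and M-MDSC and by 0.55 between cell types in spleen (log2), and none of the 10 genes changed direction where it was called. It moved 12 of 90 group means by more than 1 SD. At 793070 counts in the smallest library, Il10, Tgfb2 and Tgfb3 rested on few counts.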
